A study of Mus musculus with 14 samples.

Results

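Immediate early genes were described in the aortic valve leaflets of mice that were infused with angiotensin II (AngII), treated with LY272015 (LY), an antagonist of the serotonin receptor HTR2B, or given both. The set was a given list of 10 gene symbols: Fos, Fosb, Jun, Junb, Egr1, Egr2, Atf3, Nr4a1, Ier2 and Dusp1. The count table held 56941 genes, and the 19145 whose counts averaged 10 or more were tested. All 10 members were among them. All mice were wild type C57BL/6J males, 8 weeks old at the start, and ate a Breslow Western Diet, so that the untreated controls carried the diet as well. Ctrl mice (n = 4) were untreated. AngII mice (n = 4) received AngII at 1000 ng/kg/min from a subcutaneous osmotic pump for 28 days. LY mice (n = 2) received LY272015 at 3 mg/kg by intraperitoneal injection, and AngII+LY mice (n = 4) received the same injections during the same infusion. The injections are given as every other day in the sample labels and as 2 per week in the study's design text. In the design text, the pumps of AngII and AngII+LY mice came out 48 hours before the valves were collected under isoflurane after perfusion of the heart. The study's methods give this pump removal for only some of these mice, and the sources do not say which of the sequenced valves it covers.

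Immediate early genes are transcribed within minutes of a stimulus, without new protein synthesis, because the factors that switch them on are already in the cell. Growth factors, angiotensin II and mechanical load act through MAP kinases on serum response factor and its ETS partners at the CArG box, and cAMP and calcium act through CREB at the cAMP response element. Most of the products are transcription factors: FOS and JUN proteins pair into AP-1, EGR proteins are zinc finger activators, and NR4A1 is an orphan nuclear receptor. The messengers decay quickly, and dissection of a tissue is itself known to induce them.

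The promoters of the members are shown first, because they show which regulatory elements the members share. The 400 bases upstream of the annotated start of the Ensembl canonical transcript were searched on both strands in 21767 protein-coding genes and in 9 members, while the Egr1 promoter was not analysed here. The CArG box was present upstream of 3 of the 9 members, Fos, Fosb and Egr2, against 2.21% of all promoters. The complete cAMP response element TGACGTCA was found upstream of Ier2 and Dusp1 and in 1.87% of all promoters. Its shorter core TGACG, which also lies inside the complete element, was found upstream of 8 of the 9 members, all but Atf3, and in 23.1% of all promoters. The AP-1 site TGANTCA was found upstream of none of the 9 members and of 9.87% of all genes, and the EGR site GCGNGGGCG was found upstream of Fosb alone among the 9 and of 5.12% of all genes. In Fos, Fosb and Egr2 the CArG box was followed after 7 bases by CGTCA, the reverse complement of the core. This spacing was looked for after the sequences had been read, and it occurred in 5 of the 21767 promoters, including those 3. Capitals mark the CArG box and the core in the next lines, which are written 5′ to 3′ on the strand of the gene in build GRCm39:
Fos, chr12:85520343-85520388, plus strand: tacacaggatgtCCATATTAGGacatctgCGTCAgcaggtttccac
Fosb, chr7:19044209-19044254, minus strand: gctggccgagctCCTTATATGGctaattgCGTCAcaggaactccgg
Egr2, chr10:67373615-67373660, plus strand: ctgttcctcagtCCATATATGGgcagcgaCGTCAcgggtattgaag
The 3 sequences share the CArG box, the 7-base gap and the core. The boxes began 303, 266 and 65 bases upstream of the start, and Egr2 had another CArG box 368 bases upstream.

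The next lines show the core or the complete cAMP response element in capitals in the members without a CArG box in the window, to the same build and in the same direction:
Ier2, chr8:85389507-85389538, minus strand: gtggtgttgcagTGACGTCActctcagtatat
Dusp1, chr17:26727570-26727649, minus strand: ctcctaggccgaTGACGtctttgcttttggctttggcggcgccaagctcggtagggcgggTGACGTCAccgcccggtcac
Nr4a1, chr15:101164482-101164530, plus strand: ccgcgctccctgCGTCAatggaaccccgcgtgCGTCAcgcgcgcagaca
Jun, chr4:94940746-94940798, minus strand: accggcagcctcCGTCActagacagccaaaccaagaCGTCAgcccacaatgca
Junb, chr8:85705467-85705495, minus strand: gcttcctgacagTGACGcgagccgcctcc
Ier2 held the complete element 43 bases upstream of its start and Dusp1 held it 96 bases upstream. Nr4a1 and Jun each held the core at 2 positions. A match in these windows describes the sequence and says nothing of whether a factor was bound in these valves.

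The members were expressed at very different levels. On the RPKM scale, that is, counts divided by the length of the merged exons and by the scaled library size, the median over the 14 mice was 75.7 for Ier2, a nuclear protein of unclear biochemical role, and 65.0 for Jun, the main partner of FOS in AP-1. Dusp1, the phosphatase that inactivates MAP kinases, followed at 53.1 RPKM and Junb, a further JUN protein, at 38.9 RPKM. Egr1 stood at 16.6 RPKM, Fos at 12.8 RPKM, Atf3, a stress-induced factor of the ATF/CREB family, at 11.1 RPKM and Nr4a1 at 4.01 RPKM. Egr2 at 0.983 RPKM and Fosb at 0.137 RPKM were far below. Neighbours in this order were not all separated: Ier2 was above Jun in 11 of 14 mice, Jun above Dusp1 in 10, Dusp1 above Junb in 10, Egr1 above Fos in 10 and Fos above Atf3 in 13. Junb was above Egr1, Atf3 above Nr4a1, Nr4a1 above Egr2 and Egr2 above Fosb in all 14 mice. The merged exons of Nr4a1 (10903 bases) and Fosb (6243 bases) were the longest of the members, which lowers their values on this scale.

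**Figure D1:**
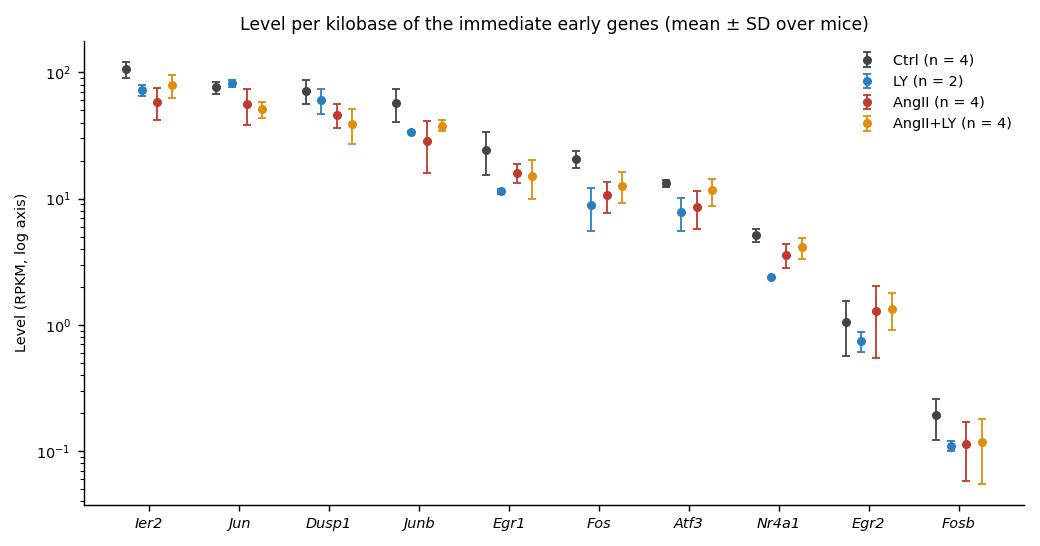
Level of each member on a log axis in RPKM, as the mean ± SD over the mice of each group. The members run from Ier2 on the left (median over 14 mice 75.7 RPKM) to Fosb on the right (0.137 RPKM).

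The libraries held between 20990655 and 73128220 counts, and AngII 4 was the smallest. Some of them stood apart. The share of mitochondrially encoded genes was highest in AngII 3, AngII 4 and AngII+LY 1, and its range was 9.83% to 25.5% for AngII, 10.1% to 20.2% for AngII+LY, 4.0% to 7.52% for Ctrl and 8.62% to 9.76% for LY. All marker genes listed for 7 cell types were detected in each group, and fibroblast or valve interstitial markers, 8 genes, summed to 0.470% to 0.872% of the AngII+LY libraries, 1.16% to 1.73% of the AngII libraries, 1.11% to 1.85% of the LY libraries and 0.887% to 1.84% of the Ctrl libraries. Cardiomyocyte markers, 10 genes, made up 1.64% to 3.98% of the AngII+LY libraries, 0.700% to 1.37% of the AngII libraries, 1.34% to 1.67% of the LY libraries and 0.715% to 3.06% of the Ctrl libraries. Adipocyte markers, 6 genes, were rare, at 0.0128% to 0.0303% of the Ctrl libraries and 0.00902% to 0.0215% of the LY libraries. They were lower in each AngII mouse, at 0.00143% to 0.00732%, and in each AngII+LY mouse, at 0.00246% to 0.00978%, than in each Ctrl mouse, and the part of this difference in the values of the members was not tested. Smooth muscle markers, 5 genes, made up 0.922% of Ctrl 1 and 0.0231% to 0.131% of the other Ctrl libraries. They made up 0.0187% to 0.0239% of the LY libraries, 0.0163% to 0.0321% of the AngII libraries and 0.0199% to 0.169% of the AngII+LY libraries. Ctrl 1 was also the highest of all mice for 4 members, and the part of this marker difference in the members was not tested. In such bulk samples, fewer cells of a type and less RNA per cell cannot be told apart. Fold changes also followed the GC content of the genes: across 19043 genes, Spearman's correlation between GC content and log2 fold change was -0.55 when AngII was set against Ctrl and -0.22 when LY was. It was -0.15 between AngII+LY and Ctrl and 0.44 between AngII+LY and AngII. Genes are not independent replicates, so these coefficients describe the libraries only. The members had a GC content of 52.0% to 62.6% over their exons, all above the median of 48.6% over the genes tested.

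AngII was compared with Ctrl to see whether the members differed in valves that had been through the infusion. Values are normalized counts, that is, counts divided by the scaled library size relative to the mean library. Fos, the founding AP-1 gene (chr12:85520658-85524047), had 2501, 3178, 2230 and 2815 in the Ctrl mice, and 1559, 1834, 1024 and 1125 in the AngII mice. Each AngII mouse lay below each Ctrl mouse. The mean was 2681 ± 409 in Ctrl and 1386 ± 379 in AngII (SD, n = 4 each), a log2 fold change of -0.95 with a standard error of 0.26 and an adjusted p of 0.063 in edgeR's quasi-likelihood test with Benjamini-Hochberg adjustment. The exact permutation test over the 8 mice gave a 2-sided p of 0.0286, the smallest that 4 against 4 allows. Fosb, a close relative of Fos, was rare, with a mean of 48.1 reads a library, and its groups overlapped. It had 92.8, 69.98, 65.9 and 35.2 in Ctrl and 10.3, 51.8, 48.1 and 46.3 in AngII, with a log2 fold change of -0.75 ± 0.66 (SE) and a 95% interval from -2.16 to 0.65.

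Among the JUN genes, Junb (chr8:85701113-85705359) had 10097, 8620, 5260 and 6214 in Ctrl and 4561, 5599, 2242 and 2458 in AngII. Its groups met only where AngII 2 exceeded Ctrl 3. Its log2 fold change was -1.02 ± 0.29 (SE), the largest of the members in size, with an adjusted p of 0.069 in edgeR. Jun (chr4:94937271-94940459) had 13269, 11526, 15280 and 13210 in Ctrl and 13497, 11301, 8185 and 6432 in AngII. AngII 1 was as high as the Ctrl mice, and the lower mean rested on AngII 3 and AngII 4, the mice with the highest mitochondrial shares. The log2 fold change of Jun was -0.43 ± 0.22 (SE), with an adjusted p of 0.22 in edgeR.

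Ier2 (chr8:85387960-85389483) had 10511, 9285, 7684 and 8016 in Ctrl and 6195, 6007, 4201 and 3315 in AngII, without overlap. Its log2 fold change was -0.85 ± 0.22 (SE), with an adjusted p of 0.061 in edgeR, the lowest of the members. Atf3 (chr1:190902493-190950241) had 1707, 1956, 1694 and 1749 in Ctrl and 1593, 1390, 765 and 903 in AngII, and these groups did not overlap either. The Ctrl mice were close together, and AngII 3 and AngII 4 were far below the other AngII mice. Nr4a1 (chr15:101151980-101172681) had 2708, 3575, 2941 and 3051 in Ctrl and 2661, 2157, 1566 and 2253 in AngII. Its groups were separated by the small step between AngII 1 and Ctrl 1. The log2 fold changes of Atf3 and Nr4a1 were -0.61 ± 0.25 and -0.51 ± 0.19 (SE), with adjusted p-values of 0.15 and 0.12 in edgeR.

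The remaining members overlapped between the groups. Egr1, the most abundant EGR gene here, had 6335, 9084, 4564 and 4143 in Ctrl and 4281, 4533, 4078 and 2978 in AngII. Its higher Ctrl mean came from Ctrl 1 and Ctrl 2, and the log2 fold change was -0.60 ± 0.27 (SE; edgeR adjusted p = 0.19). Dusp1 (chr17:26724564-26781102) had 16720, 14189, 11093 and 10566 in Ctrl and 11058, 7509, 7788 and 7309 in AngII. AngII 1 alone reached the Ctrl range, and the log2 fold change was -0.64 ± 0.24 (SE; edgeR adjusted p = 0.13). Egr2 (chr10:67371305-67378018) was the exception in direction. It had 318, 206, 102 and 164 in Ctrl and 164, 204, 150 and 450 in AngII, with a log2 fold change of 0.29 ± 0.45 (SE) that turned to -0.19 without AngII 4.

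**Figure D2:**
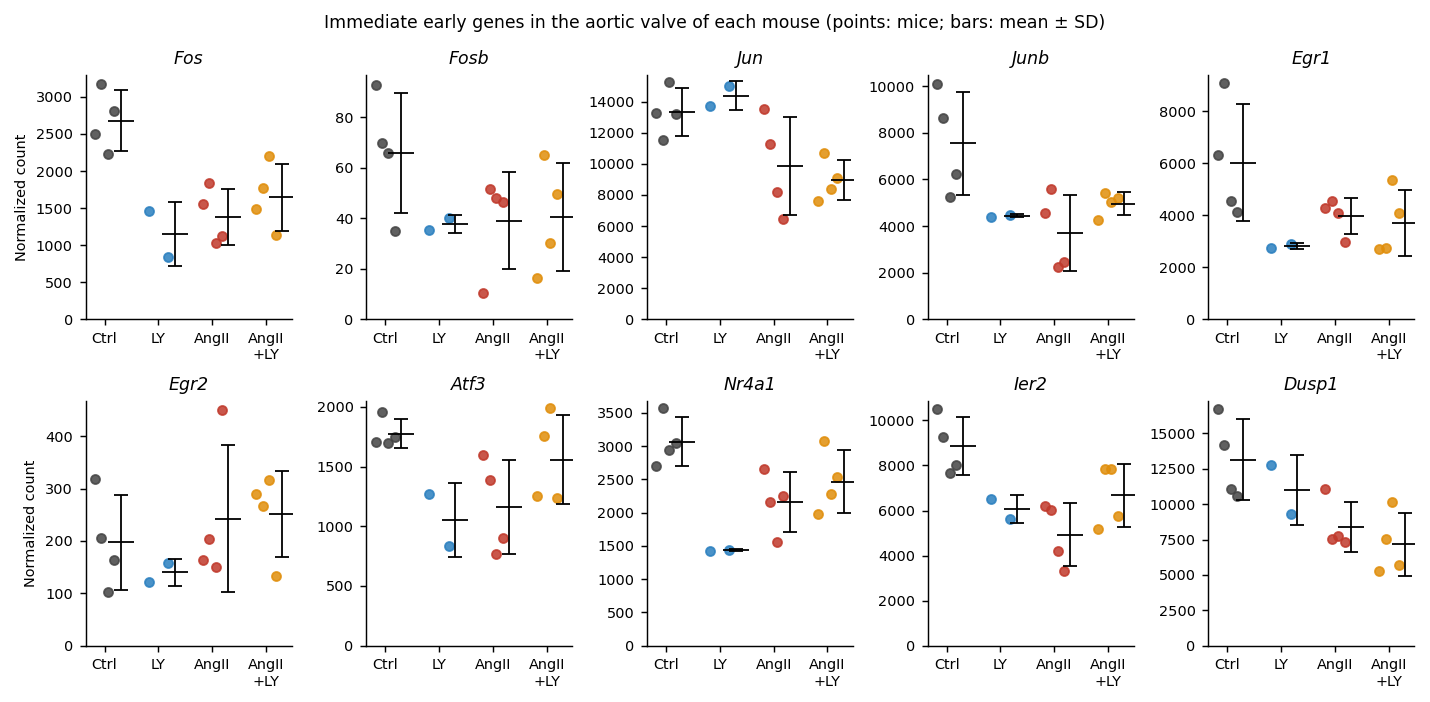
Normalized count of each member in each mouse (points) with the group mean ± SD (bars), on linear axes that start at 0. Fos, Atf3, Nr4a1 and Ier2 in the AngII mice lie below all Ctrl mice, and the 2 LY mice lie below all Ctrl mice for 6 members.

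Over the list, 9 of the 10 members had a lower estimate in AngII, against 52.7% of all genes tested, and none passed the call, which asked for a difference of over 0.5 on the log2 scale in either direction and an adjusted p under 0.05. Of all genes tested, 0% passed it. Before adjustment, 7 members were lower at a p under 0.05, against 11.7% of all genes tested that were lower at that threshold. The groups did not overlap for 4 members, all lower in AngII, against 7.56% of all genes. The median log2 fold change was -0.63 over the members and -0.06 over all genes tested. DESeq2 called 2648 of the 19145 genes in this comparison and among them Fos, Junb and Ier2, with adjusted p-values of 0.00846, 0.00832 and 0.00494. In edgeR, Fos, Junb and Ier2 passed the call without AngII 1 (adjusted p-values of 0.047, 0.045 and 0.032), where 1726 genes were called. Junb passed it without AngII 2 (edgeR adjusted p = 0.048), where 360 genes were called. The count of members at an unadjusted p under 0.05 fell to 4 without Ctrl 2 or without AngII 3, where 3704 and 3951 genes were under it. With AngII 3, AngII 4 and AngII+LY 1 left out, the median of the members was -0.48. There 3 members, Fos, Junb and Ier2, stayed under an unadjusted p of 0.05, against 9.63% of all genes.

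Correction of the counts for GC content changed this comparison most. It moved the median of all genes tested from -0.06 to 0.15 and the median of the members from -0.63 to -0.02, so that relative to all genes the members went from -0.57 to -0.16. No member remained at an unadjusted p under 0.05 after it, against 15.3% of all genes. Egr2 then had the largest estimate in size, as its higher value in AngII moved from 0.29 to 1.03 ± 0.54 (SE; edgeR adjusted p = 0.39). Among the members with lower estimates, Fos had the largest difference, with a log2 fold change of -0.51 ± 0.24 (SE) and an edgeR adjusted p of 0.34. The estimates of Fosb, Jun, Egr1 and Nr4a1 turned slightly positive, at 0.02, 0.15, 0.09 and 0.14, and all of these except Jun stayed below the median of all genes. The part of GC content in the lower values was not tested.

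**Figure D3:**
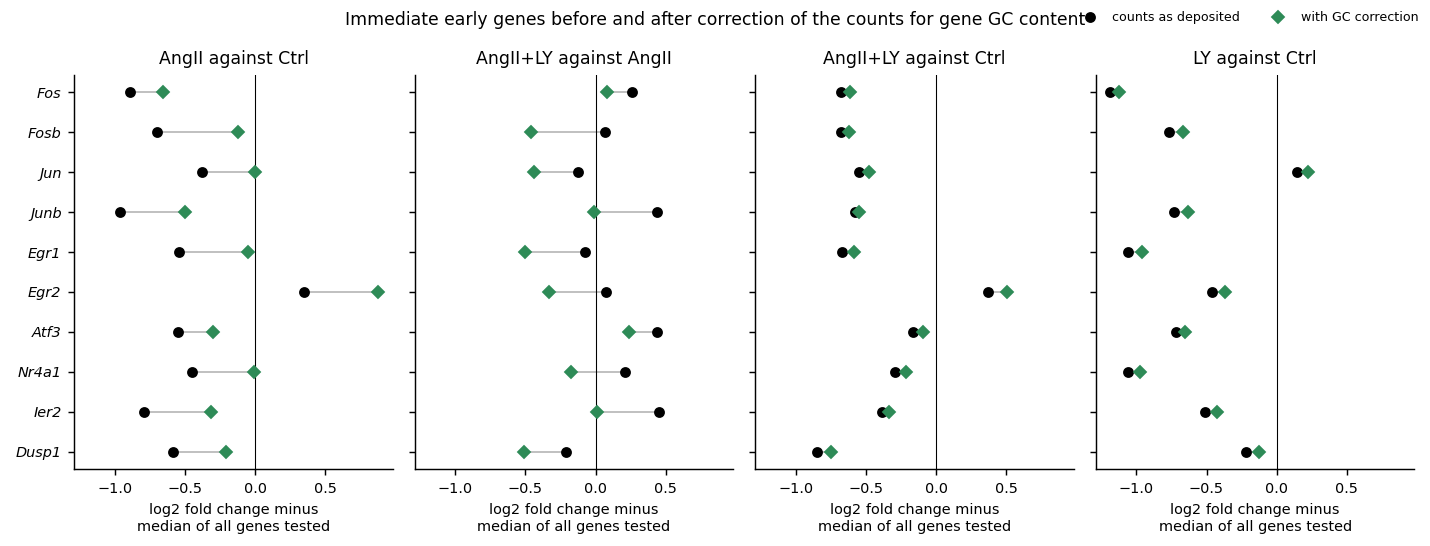
Log2 fold change of each member minus the median of all genes tested, from the counts as deposited (black circles) and after correction for gene GC content (green diamonds), in 4 comparisons. In AngII against Ctrl the member median moves from -0.57 to -0.16, while in LY against Ctrl it moves from -0.73 to -0.64.

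AngII+LY was compared with AngII to see whether the antagonist altered the members during the infusion. No member separated the groups. In AngII+LY, Fos had 1482, 1769, 2197 and 1138, Junb had 4256, 5417, 5015 and 5185, and Ier2 had 5193, 7855, 7867 and 5765. All 4 values of Fos were below the lowest Ctrl mouse, while Junb in AngII+LY 2 and Ier2 in AngII+LY 2 and AngII+LY 3 were above it. For Fos and Ier2 the highest AngII+LY mouse was also above all AngII mice. The log2 fold changes were 0.25 ± 0.26 for Fos, 0.42 ± 0.28 for Junb and 0.44 ± 0.22 for Ier2 (SE), and their 95% intervals ran from -0.30 to 0.79, from -0.19 to 1.03 and from -0.04 to 0.91.

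Atf3 had 1252, 1757, 1988 and 1238 in AngII+LY, so AngII+LY 2 and AngII+LY 3 were inside the Ctrl range or above it. Its estimate of 0.42 ± 0.25 (SE) had a 95% interval from -0.12 to 0.96. Nr4a1 had 1976, 3080, 2275 and 2539, an estimate of 0.19 ± 0.19 (SE). Jun (7627, 10694, 8383 and 9101), Egr1 (2693, 2752, 5366 and 4078) and Dusp1 (5264, 7544, 10169 and 5718) had slightly lower means than AngII, with estimates of -0.14, -0.09 and -0.23. Egr2 had 290, 266, 317 and 133, and Fosb had 16.5, 65.1, 30.2 and 49.8, with estimates of 0.06 and 0.05.

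Of the 10 members, 7 had higher and 3 lower estimates in AngII+LY, and 49.1% of all genes had higher ones. None of the members or other genes (0%) passed the call in edgeR. No member was at an unadjusted p under 0.05 in edgeR (DESeq2 had 1 member there), against 12.4% of all genes that were lower and 10.1% that were higher, and none had groups without overlap, against 5.66% lower and 5.45% higher. The median was 0.13 over the members and -0.02 over all genes. After the GC correction the member median was -0.24 and the estimates of Fosb, Egr2 and Nr4a1 turned negative, at -0.45, -0.32 and -0.16. Jun, at -0.42 ± 0.16 (SE), was then the only member at an unadjusted p under 0.05, against 15.2% of all genes. Dusp1 moved to -0.49 ± 0.23 and Egr1 to -0.48 ± 0.24 (SE), short of that threshold. The summed fibroblast markers were lower in each AngII+LY mouse than in each AngII mouse, and the part of this difference in the values of the members was not tested.

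AngII+LY was also compared with Ctrl, and this comparison shares its Ctrl mice with the comparison of AngII. Fos, Jun and Dusp1 in all AngII+LY mice lay below all Ctrl mice. For Dusp1, the AngII+LY mean was 7174 ± 2227 and the Ctrl mean 13142 ± 2871 (SD, n = 4 each), with a log2 fold change of -0.87 ± 0.24 (SE) and an adjusted p of 0.25 in edgeR. Jun differed by -0.57 ± 0.22, Fos by -0.70 ± 0.26 and Egr1 by -0.70 ± 0.27 on the log2 scale (SE), and these and Dusp1 were the 4 members at an unadjusted p under 0.05, against 6.14% of all genes that were lower at that threshold. The 3 members without overlap stood against 4.89% of all genes that were lower without overlap. Atf3 had the estimate closest to 0, -0.19 ± 0.25 (SE). Over the list, 9 of 10 members were lower in estimate, as were 51.9% of all genes. The median of the members was -0.59 and no member or other gene was called by edgeR (0%), while DESeq2 called 343 genes and among them Dusp1, at an adjusted p of 0.041. Without AngII+LY 1 the count at an unadjusted p under 0.05 was 2, where 1787 of the 19145 genes were under it. After the GC correction Dusp1 alone of the 10 members remained under that threshold, at -0.55 ± 0.23 (SE), against 15.4% of all genes. The median of all genes moved from -0.02 to 0.20, so that relative to all genes the members went from -0.57 to -0.51.

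LY was compared with Ctrl to see what the antagonist did without the infusion. It rests on 2 LY mice, which allow no exact permutation p below 0.0667. Nr4a1 had 1428 and 1444 in the LY mice, against 2708 to 3575 in Ctrl. These were the lowest values of Nr4a1 in the series, and the mean was 0.468 times that of Ctrl. The log2 fold change was -1.10 ± 0.24 (SE), with a 95% interval from -1.62 to -0.57, and the adjusted p of 1 in edgeR reflects adjustment over all genes tested. Fos had 1455 and 846 in the LY mice, with a log2 fold change of -1.22 ± 0.33 (SE), and LY 2 was the lowest Fos value of all mice. Egr1 had 2733 and 2906, below the lowest Ctrl mouse at 4143, with a log2 fold change of -1.10 ± 0.35 (SE).

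Atf3 had 1270 and 836, Ier2 had 6520 and 5644, and Junb had 4407 and 4486 in the LY mice, each below all 4 Ctrl mice. Their log2 fold changes were -0.75 ± 0.32, -0.55 ± 0.28 and -0.76 ± 0.36 (SE). Jun behaved otherwise: at 13733 and 15024 it was inside the Ctrl range, with an estimate of 0.11 ± 0.26 (SE) and a 95% interval from -0.45 to 0.67. Dusp1 (12773 and 9285), Egr2 (121 and 158) and Fosb (35.3 and 40.2) overlapped with Ctrl.

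In LY against Ctrl, 9 of 10 members had lower estimates, as did 54.1% of all genes, and no gene was called by edgeR (0% of all genes). At an unadjusted p under 0.05, 4 members were lower, against 0.763% of all genes tested. The groups did not overlap for 6 members, all lower, against 6.41% of all genes. DESeq2 called 21 genes and Nr4a1 among them, with an adjusted p of 0.014. The count of 4 members fell to 2 without LY 2. The GC correction left these values nearly in place: Fos stood at -1.11 ± 0.31, Nr4a1 at -0.97 ± 0.27 and Egr1 at -0.95 ± 0.31 (SE). After it, 5 members were at an unadjusted p under 0.05, against 1.43% of all genes. All 7 heat shock genes listed as signs of tissue handling also had lower estimates in LY, with a median of -0.37 and none at an unadjusted p under 0.05, and the part of tissue handling was not tested.

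**Figure D4:**
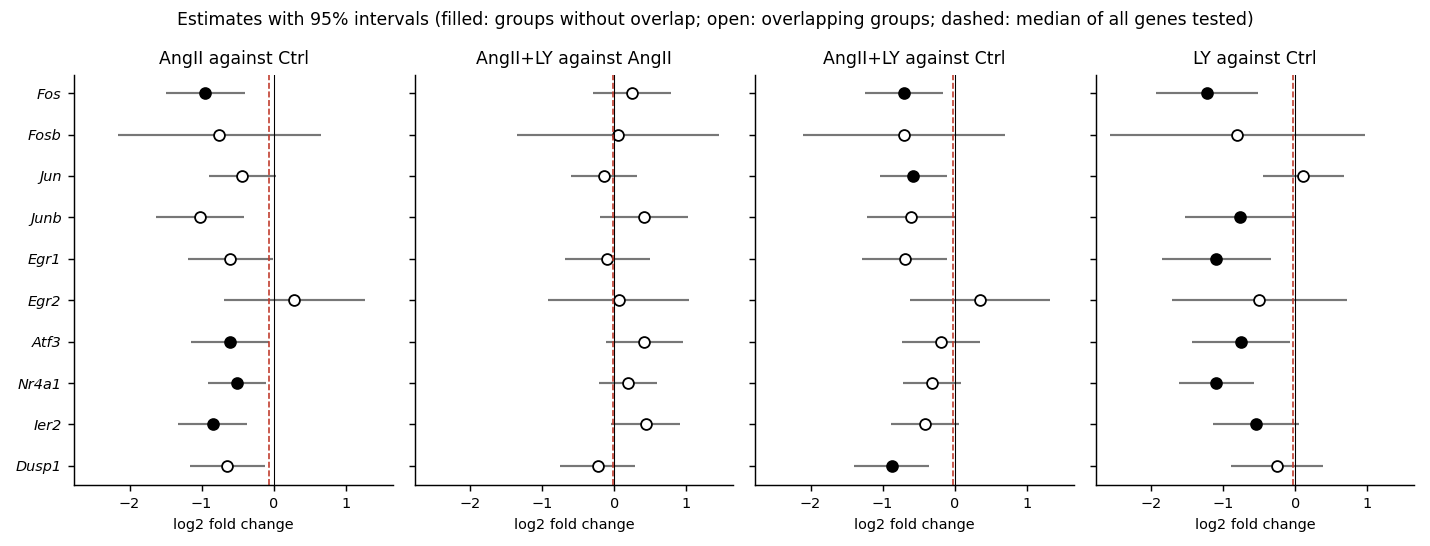
Log2 fold change of each member with its 95% interval in 4 comparisons, filled where the groups did not overlap and open where they did, with a dashed line at the median of all genes tested. Nr4a1, Fos and Egr1 in LY against Ctrl lie at -1.10, -1.22 and -1.10, while all members in AngII+LY against AngII lie between -0.23 and 0.44.

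The difference between the LY effect with AngII and the LY effect without it was tested as an interaction. The LY effect without AngII is the comparison of LY with Ctrl, so the interaction shares its Ctrl and LY mice and is not independent of it. In the LY effect with AngII, 0 members were at an unadjusted p under 0.05 in edgeR, and their median was 0.13. The interaction was positive for 9 of the 10 members, with the exception of Jun, and for 51.8% of all genes. Nr4a1 had the smallest p, with an interaction of 1.29 ± 0.31 (SE) on the log2 scale and an adjusted p of 0.29 in edgeR. Fos followed at 1.47 ± 0.41, Atf3 at 1.17 ± 0.41, Ier2 at 0.98 ± 0.35, Junb at 1.18 ± 0.46 and Egr1 at 1.004 ± 0.44 (SE). These 6 members were positive at an unadjusted p under 0.05, against 5.66% of all genes, and 0% of the genes were called. DESeq2 called 210 genes and among them Nr4a1 and Fos, at adjusted p-values of 0.015 and 0.039. The 2 LY mice entered each of these values, and 2 members remained under the unadjusted threshold without LY 2. The interaction also followed GC content over the genes tested, with a Spearman's correlation of 0.43. After the GC correction the median of the members went from 0.99 to 0.45. There 4 members were at an unadjusted p under 0.05, against 8.04% of all genes. Fos (1.21 ± 0.39), Atf3 (0.90 ± 0.35) and Nr4a1 (0.81 ± 0.34) were positive, and Jun was negative (-0.66 ± 0.24; SE throughout). Junb, Ier2 and Egr1 were no longer under that threshold.

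Taking all 14 mice in order, Fos was the only member for which each Ctrl mouse was above each other mouse, a pattern found in 0.225% of the genes tested. The members together made up 907 to 1167 CPM (counts relative to the scaled library size) in the Ctrl mice, 738 to 808 in the LY mice, 495 to 828 in the AngII mice and 546 to 792 in the AngII+LY mice. The 3 lowest mice, AngII 4, AngII 3 and AngII+LY 1, at 495, 546 and 546, were the 3 with the highest mitochondrial share. The sum is weighted towards the members with the most counts, Jun, Dusp1, Ier2 and Junb. With equal weight for each member, the mean log2 difference from the Ctrl mean was -0.21 to 0.23 in the Ctrl mice. It was -0.73 to -0.60 in the LY mice, -0.89 to -0.38 in the AngII mice and -0.79 to -0.26 in the AngII+LY mice. With mitochondrially encoded counts taken out of the denominator, the members made up 1086 to 1409 CPM in the Ctrl mice and 527 to 969 in the others, so each other mouse was still below each Ctrl mouse. A fit without the mitochondrially encoded genes gave a median of -0.60 for AngII against Ctrl.

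**Figure D5:**
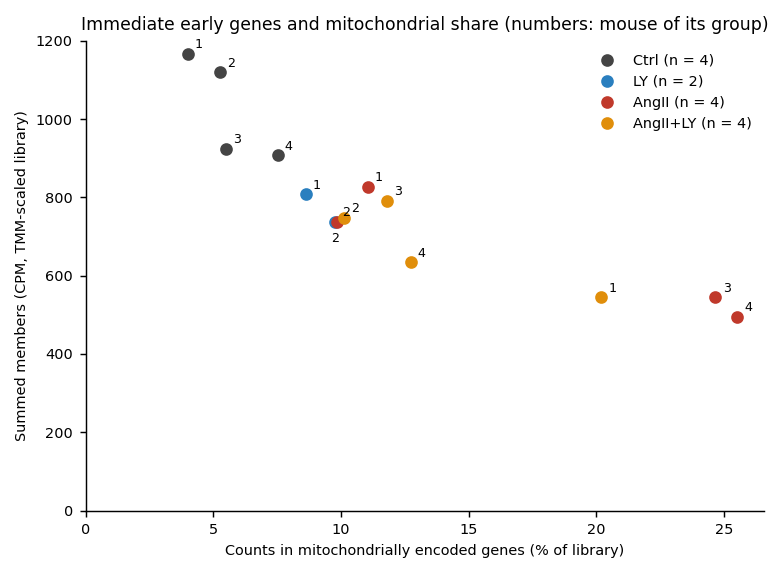
Summed members in CPM of the TMM-scaled library against the share of counts in mitochondrially encoded genes in each of the 14 mice, numbered within their group. The Ctrl mice lie at 907 to 1167 with shares of 4.0% to 7.52%, and AngII 3, AngII 4 and AngII+LY 1 lie at 495 to 546 with shares above 20%.

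Within groups the spread differed from member to member. The pooled within-group standard deviation on the log2 scale was 0.25 for Nr4a1, 0.30 for Jun and 0.32 for Ier2. It was 0.34 for Dusp1, 0.36 for Atf3 and 0.37 for Fos. The median was 0.54 over all genes tested and 0.42 over the 13619 genes that averaged 100 counts or more. Egr1 at 0.41 and Junb at 0.44 were close to the median of 0.42, and Fosb and Egr2 were above it. Fosb at 0.81 and Egr2 at 0.63 varied most, and they were the members with the lowest counts. Ier2 followed the mean of the other members most closely across the 14 mice (Pearson's r = 0.89), before Fos (0.87), Junb (0.86) and Atf3 (0.80). Egr1 (0.68), Nr4a1 (0.66) and Dusp1 (0.64) followed it less, Jun (0.36) and Fosb (0.31) weakly, and Egr2 did not (-0.07). Of the carriers of the CArG box shown above, Fos stood near the top of this order and Fosb and Egr2 at its end. Fosb and Egr2 also had the lowest counts, and the part of the element in this order was not tested. All these coefficients are descriptions over mice that share groups and library depth.

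The genes whose values over the 14 mice were most like the mean of the members were ranked among 13610 others that averaged 100 counts or more. Arhgap9 came first (Pearson's r = 0.89), followed by Ift46 (0.88), Lrrc14 (0.87), Rhog (0.87) and Irf1, the interferon regulatory factor (0.85). No gene of the lists described here was among the first 10. At the other end stood Gm28439 (-0.90), Zfp994 (-0.89), Bcap29 (-0.89) and mt-Nd1 (-0.89), a subunit of respiratory complex I encoded by the mitochondrial genome.

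Other immediate early genes were taken from a list of 40, of which 38 were tested. In AngII against Ctrl, 23 had lower and 15 higher estimates, and 11 were lower and 4 higher at an unadjusted p under 0.05, where 11.7% and 13.4% of all genes were. Their median was -0.25, nearer to that of all genes (-0.06) than that of the members. The smallest p was that of Cebpd, a C/EBP factor, with 7144 ± 1471 in Ctrl and 2790 ± 1047 in AngII (SD) and a log2 fold change of -1.35 ± 0.29 (SE; edgeR adjusted p = 0.057). Btg2, an antiproliferative gene, and Zfp36, whose product degrades AU-rich messengers, differed by -1.11 ± 0.24 and -1.13 ± 0.27 (SE). Ptgs2, the inducible cyclooxygenase, went the other way, from 400 ± 163 in Ctrl to 3548 ± 3634 in AngII (SD), a log2 fold change of 3.14 ± 0.76 (SE; edgeR adjusted p = 0.058) with values from 650 to 8864 among the AngII mice. No gene of this list was called.

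In AngII+LY against AngII, 25 of these 38 genes had higher and 13 lower estimates, with 7 higher and 2 lower at an unadjusted p under 0.05, where 10.1% and 12.4% of all genes were. Gadd45g, a stress-response gene, and Per1, a clock gene that is also induced acutely, differed by 0.77 ± 0.23 and 0.79 ± 0.25 (SE; edgeR adjusted p = 0.084 and 0.099). Gadd45b, a relative of Gadd45g, differed by 0.72 ± 0.24 and Nfkbiz, an inhibitor of the NF-kappaB family, by -0.76 ± 0.28 (SE). In AngII+LY against Ctrl, 20 were lower and 18 higher in estimate, with 4 and 1 at an unadjusted p under 0.05, against 6.14% and 4.89% of all genes. In LY against Ctrl none of the 38 was at an unadjusted p under 0.05, where 1.39% of all genes were, so a list of this size need not hold any. Their median was -0.06.

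The genes upstream of the members are kinases of the MAP kinase cascades and the factors that bind the elements shown above. In AngII against Ctrl, 14 of the 22 had higher and 8 lower estimates, with 9 higher and 6 lower at an unadjusted p under 0.05, against 13.4% and 11.7% of all genes. Mapk8, which encodes the kinase JNK1, had 332 ± 99.2 in Ctrl and 945 ± 377 in AngII (SD), a log2 fold change of 1.504 ± 0.37 (SE; edgeR adjusted p = 0.058). Crem, a relative of CREB, differed by 0.70 ± 0.18, Braf, a kinase at the head of the ERK cascade, by 0.72 ± 0.23 and Map2k2, a kinase that activates ERK, by -0.67 ± 0.22 (SE). In AngII+LY against AngII, 16 were lower and 6 higher, with 6 and 3 at an unadjusted p under 0.05, against 12.4% and 10.1% of all genes. Map2k2 had the smallest p there and differed by 0.72 ± 0.22 (SE; edgeR adjusted p = 0.090). Srf, serum response factor, differed by 1.05 ± 0.34, Crem by -0.56 ± 0.18 and Creb1 by -0.76 ± 0.27 (SE), with adjusted p-values of 0.10, 0.11 and 0.12 in edgeR. In LY against Ctrl none of the 22 was at an unadjusted p under 0.05, against 1.39% of all genes. In AngII+LY against Ctrl 1 was higher and 1 lower, against 4.89% and 6.14% of all genes.

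The list of feedback inhibitors of MAP kinase signalling held 12 genes, all tested. In AngII against Ctrl, 8 had lower and 4 higher estimates, and Dusp2 and Spry1 were lower and Spred1 higher at an unadjusted p under 0.05. These 2 lower genes and 1 higher gene of 12 were near the shares of all genes at that threshold, 11.7% and 13.4%. Dusp2, a nuclear phosphatase, had 242 ± 114 in Ctrl and 55.0 ± 33.1 in AngII (SD), and Spry1, a Sprouty protein, had 2193 ± 759 and 1051 ± 353. In AngII+LY against AngII, Spry1 differed by 0.71 ± 0.31 and Spred1 by -0.72 ± 0.21 (SE), and no other gene of the list was at an unadjusted p under 0.05, where 10.1% of all genes were higher and 12.4% lower. In AngII+LY against Ctrl the only one was Zfp36l2, lower by -0.42 ± 0.16 (SE), where 6.14% of all genes were lower. Zfp36l2 is a relative of Zfp36 and not of Dusp1. In LY against Ctrl no gene of the list was at that threshold, against 1.39% of all genes.

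Of the receptors through which the agents act, 3 of 6 were tested. Agtr1a, the main angiotensin II receptor, had 300 ± 105 in the Ctrl mice, 330 ± 5.21 in the LY mice, 449 ± 30.4 in the AngII mice and 513 ± 180 in the AngII+LY mice (SD). Htr2b, the target of LY272015, was rare, with 34.8 ± 14.4 in the Ctrl mice, 73.7 ± 94.3 in the LY mice, 30.3 ± 41.1 in the AngII mice and 57.2 ± 40.7 in the AngII+LY mice (SD), and these values did not separate any groups. Htr2a, a related serotonin receptor, had 427 ± 240 in the Ctrl mice, 338 ± 34.9 in the LY mice, 531 ± 380 in the AngII mice and 250 ± 169 in the AngII+LY mice (SD). Agtr2 and Htr2c averaged under 1 count a library and were not tested. Agtr1b was at 0 counts in all 14 libraries, which allows up to 3 counts in each. Agtr1a in AngII+LY against Ctrl, at 0.78 ± 0.31 (SE; edgeR adjusted p = 0.38), was the only receptor comparison at an unadjusted p under 0.05. At that threshold 4.89% of all genes were higher in AngII+LY against Ctrl. The heat shock list held 7 genes, all tested. In AngII against Ctrl, Hsp90aa1 was higher (0.78 ± 0.27) and Dnajb1 lower (-0.45 ± 0.17) at that threshold, as were 13.4% and 11.7% of all genes. In AngII+LY against AngII, Hspb1 was higher (0.87 ± 0.23) and Hsph1 lower (-0.38 ± 0.16), as were 10.1% and 12.4% of all genes. In AngII+LY against Ctrl, Dnajb1 was lower (-0.41 ± 0.17; SE throughout), as were 6.14% of all genes.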

How the data were processed

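The samples were 14 libraries of RNA from aortic valve leaflets, each a separate mouse per the labels. Per the labels and the study's methods, the authors checked reads with FastQC 0.12.1, aligned them to GRCm39 with HISAT2 and counted them with featureCounts; the annotation is not given in the sources used here. The deposited table, although named for normalized values, held raw counts: whole numbers with totals from 20990655 to 73128220. Values of 2 (13373) outnumbered values of 1 (10072) and of 3 (4872); the cause was not tested. Groups came from sample titles, since treatment labels of LY 2 and AngII+LY 2 to 4 carry numbers that run on from LY272015. Titles list 2 LY mice.

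The members and all lists were chosen with earlier results of these data known. Members were matched by Ensembl ID to GENCODE release 39 symbols (618 IDs, 0.0361% of counts, were unmatched). Genes averaging 10 counts or more were fitted in edgeR 4.0.16 (R 4.3.3) with TMM scaling and the quasi-likelihood test, 4 groups in 1 fit, with Benjamini-Hochberg adjustment over 19145 genes. A call asked for a log2 difference of over 0.5 in size and an adjusted p under 0.05, after the study's threshold. Single values were also compared by exact 2-sided permutation of log2(normalized count + 1); 4 against 4 allows no p below 0.0286. The named genes were all members, all receptors and, of each list, up to 4 genes of smallest p in AngII against Ctrl and in AngII+LY against AngII; those named in AngII+LY against Ctrl were chosen after their values were seen. The scripts were tested on simulated data. Alternatives were DESeq2 1.42.0, limma 3.58.1 with pseudocounts of 0.5 and 10, median-of-ratios scaling, no filter, only the groups compared, a replicate block, GC correction by loess (span 0.3) as offsets and leaving out each mouse. The older quasi-likelihood version, listed as an alternative, is the default of this edgeR and so coincides with the fit reported. Chosen after seeing the data were the newer version, leaving out the 3 libraries of highest mitochondrial share and leaving out mitochondrially encoded genes. Promoter windows came from the GRCm39 genome and GENCODE release 39. No 2 libraries were identical.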

Additional observations from a re-analysis of the deposited data

Results flagged for a closer look

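Among 30 groups of 4 mice checked, 10 members in 3 groups, 2 values lay far from the other mice of their group. Fosb in AngII 1 was the lowest of its group at a normalized count of 10.3, from 10 reads, against 46.3 to 51.8 in the other AngII mice. Dusp1 in AngII 1 was the highest of its group at 11058, against 7309 to 7788 in the others. Chance alone marks about 1 in 20 groups this way.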

How the results depend on the processing

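Across the alternatives, 191 of 200 member estimates kept their sign in AngII against Ctrl, 183 of 200 in AngII+LY against AngII, 198 of 200 in AngII+LY against Ctrl, 179 of 180 in LY against Ctrl and 238 of 250 in the interaction. The causes of the changes below were not tested.

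For AngII against Ctrl, where edgeR called 0 genes, DESeq2 called 2648, limma 2 (pseudocount 0.5) and 1 (pseudocount 10), the fit with no filter on low counts 123 and the newer quasi-likelihood version 555, none of which was a member in that version. Leaving out 1 mouse gave 0 to 1726 called genes, with 1726 without AngII 1, 799 without Ctrl 4 and 360 without AngII 2, and 4 to 7 members at an unadjusted p under 0.05. With the GC correction the count of such members was 0, the median was -0.0185, and Fosb (0.0228), Jun (0.15), Egr1 (0.0943) and Nr4a1 (0.14) changed sign. With the GC correction and the replicate block the count was 0, the median -0.11, Jun 0.15, Egr1 0.0804 and Nr4a1 0.12. With the 3 libraries of highest mitochondrial share left out the count was 3 and Egr2 was at -0.10, and leaving out 1 mouse moved Egr2 from -0.19 to 0.62.

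For AngII+LY against AngII the called genes were 2062 in DESeq2, 2 and 6 in limma with pseudocounts of 0.5 and 10, 1 with no filter and 176 in the newer version, and 0 to 842 with 1 mouse left out, 842 being without AngII 1. Members at an unadjusted p under 0.05 numbered 1 with median-of-ratios scaling, 1 in DESeq2, 2 with the replicate block, 1 with the GC correction, 1 with both, and 0 to 2 with 1 mouse left out (2 without AngII 1 or AngII 2). The GC correction gave a median of -0.24, with Fosb at -0.45, Egr2 at -0.32 and Nr4a1 at -0.16. With the block added these were -0.11, -0.41, -0.11 and -0.12. Leaving out 1 mouse moved Fosb from -0.27 to 0.31, Jun from -0.30 to 0.0508, Egr1 from -0.32 to 0.0531 and Egr2 from -0.11 to 0.54.

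For AngII+LY against Ctrl the called genes were 343 in DESeq2, 5 in limma with a pseudocount of 10, 13 with no filter, 1 with the GC correction and the block, 1 without the 3 libraries and 0 to 3 with 1 mouse left out. Members at an unadjusted p under 0.05 numbered 1 with the GC correction, 1 with the block added and 2 to 5 with 1 mouse left out. The median was -0.31 with the GC correction and -0.29 with the block added, and Atf3 was at 0.11 and 0.10. For LY against Ctrl, DESeq2 called 21 genes, the members at an unadjusted p under 0.05 ranged from 2 to 5 with 1 mouse left out, and Jun was at -0.00508 with the replicate block. For the interaction, DESeq2 called 210 genes and limma with a pseudocount of 0.5 called 1. Members at an unadjusted p under 0.05 ranged from 2 to 6 with 1 mouse left out, and the median was 0.45 with the GC correction and 0.43 with the block added. The interaction of Dusp1 was -0.38 with the GC correction, -0.39 with the block added, -0.0125 and -0.0123 with limma pseudocounts of 0.5 and 10, -0.00451 without mitochondrially encoded genes and from -0.19 to 0.27 with 1 mouse left out.

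For same-numbered mice of different groups, the correlations of their deviations from the group means over the genes tested ran from -0.13 to 0.09. Differently numbered mice were not set beside them, so these values cannot settle whether the numbers pair mice. The replicate block changed no call of a member. In AngII+LY against AngII it moved the count of members at an unadjusted p under 0.05 from 0 to 2. Groups of 4, and of 2 for LY, limit the precision of all values, and Fosb and Egr2 had the fewest counts of the members.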
